A study of Mus musculus with 18 samples.

Results

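The transcripts described are 10 genes of sarcoplasmic reticulum calcium handling: the calcium pumps Atp2a1 and Atp2a2, the small membrane proteins Sln, Mrln and Pln that act on those pumps, the calcium buffers Casq1, Casq2 and Pvalb, the release channel Ryr1 and its voltage sensor Cacna1s. They were chosen by symbol, as 10 of the 20922 genes in the table, and not by any measured value. RNA came from the tibialis anterior, a fast muscle of the lower hindlimb, of mice collected 36 days after the femoral artery of 1 limb was ligated, a model of peripheral artery disease. There were 18 libraries in 4 groups: muscle of the intact opposite limb (5 libraries) and of the ligated limb (4 libraries) in control mice, labelled WT, and the same in mice labelled BKO, in which the clock gene Bmal1 was to be deleted in skeletal muscle.

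Both genotypes carried floxed Bmal1 alleles (Bmal1fx/fx) and the description gives them a shared doxycycline gavage, with ligation a week after its last dose. Deletion relied on the ACTA-rtTA-TRE-Cre transgene, so cells of the muscle other than fibres were not its stated target. The labels give the controls as ACTA-rtTA-TRE-Cre+/+ and the knockouts as ACTA-rtTA-TRE-Cre-/-, the reverse of the usual sense of those signs, so the direction of every genotype comparison rests on the group names WT and BKO. The intact muscle came from operated mice, not from unoperated ones. Age, sex and time of day of collection were not given in the sources used here, nor was whether samples with 1 number came from 1 mouse. P-values therefore measure the spread between these samples.

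A muscle fibre contracts when depolarization of its transverse tubules moves the voltage sensor encoded by Cacna1s, which opens the ryanodine receptor encoded by Ryr1 and lets calcium out of the sarcoplasmic reticulum. The SERCA pumps return it: Atp2a1 encodes the pump of fast fibres and Atp2a2 that of slow fibres and heart. Sarcolipin (Sln), myoregulin (Mrln) and phospholamban (Pln) are single-pass peptides that bind these pumps and lower their activity. Inside the reticulum calcium is held by calsequestrin, as Casq1 in fast fibres and as Casq2 in heart and slow fibres, and in the cytosol of fast fibres by parvalbumin (Pvalb).

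Mrln and Casq2 differed most between the genotypes, with mean normalized counts 3.63 and 3.18 times as high in BKO as in WT intact muscle. Ryr1 and Atp2a1 were lower in BKO intact muscle, with means 0.551 and 0.757 times those of WT, and neither passed the test between the genotypes in ligated muscle. Atp2a2 rose with ligation in both genotypes, to a mean normalized count 2.03 times as high in WT, and Pvalb fell in both. Sln was near 0 in intact muscle and had a mean 25.5 times as high in WT ligated muscle. Of the 10 genes, Ryr1 alone passed a test of whether the response to ligation differed between the genotypes. Of all tested genes 6.01% passed it. For the other members, not passing does not show equal responses. The response in BKO minus that in WT was 0.44 for Atp2a1 and 0.56 for both Atp2a2 and Mrln on the log2 scale. These missed the threshold in the main fit, and each passed under another setting.

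Promoter sequences are shown for Mrln and Casq2 because these had the largest genotype differences. They are RefSeq windows on build GRCm38.p6 of 300 bases, from 250 before to 50 after the annotated start, at chr10:70204414-70204713 (plus strand) for Mrln and chr3:102086165-102086464 (plus strand) for Casq2. Capitals mark a match to the MEF2 motif.
Mrln: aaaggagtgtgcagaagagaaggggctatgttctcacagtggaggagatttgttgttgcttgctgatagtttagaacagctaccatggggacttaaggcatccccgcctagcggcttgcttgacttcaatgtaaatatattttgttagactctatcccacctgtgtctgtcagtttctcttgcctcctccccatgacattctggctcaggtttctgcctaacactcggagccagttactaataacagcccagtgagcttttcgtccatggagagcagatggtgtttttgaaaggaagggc
Casq2: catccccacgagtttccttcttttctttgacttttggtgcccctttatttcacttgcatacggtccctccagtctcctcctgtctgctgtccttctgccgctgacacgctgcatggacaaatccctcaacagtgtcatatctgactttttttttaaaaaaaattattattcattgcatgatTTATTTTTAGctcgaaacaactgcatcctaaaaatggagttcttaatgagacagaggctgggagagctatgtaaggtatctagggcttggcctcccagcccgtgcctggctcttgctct
The windows of 8 of the 10 genes were in the RefSeq table (Pvalb with 2 of them, Atp2a2 and Sln with none), and 4 motifs were searched on both strands. The E-box CACGTG, to which CLOCK and BMAL1 bind, was in 0 of these 9 windows and in 7.15% of all 32851 windows of the same length. The E-box CAGCTG of the myogenic factors was in 4 windows, those of Atp2a1, Pln, Casq1 and Cacna1s (16.3% of all windows). AGGTCA, the core of nuclear receptor sites such as those of REV-ERB and ROR, was in the Atp2a1 window (16.3% of all). The MEF2 motif was in the Casq2 window and in 1 of the 2 Pvalb windows (3.19% of all). No match of 1 motif overlapped a match of another. The Mrln and Ryr1 windows and the other Pvalb window held none of the 4. A match describes letters, not binding.

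Depth was 14.1 to 25.6 M reads per library. The share of reads from the mitochondrial ribosomal RNA mt-Rnr2 was 31.9 to 34.3% (WT) and 33.6 to 36.1% (BKO) in intact limbs, against 38.1 to 45.3% (WT) and 40.9 to 55.5% (BKO) in ligated ones. The targeted gene Bmal1 (symbol Arntl) had mean normalized counts of 56.3 ± 11.8 (WT) and 49.9 ± 6.997 (BKO) in intact limbs (SD, n = 5 each) and of 16.2 ± 2.72 (WT) and 70.0 ± 8.35 (BKO) in ligated limbs (SD, n = 4 each). Its mean total over all exons was thus lower in BKO than in WT in intact limbs, with overlapping ranges (41.3 to 68.4 in WT and 42.4 to 61.1 in BKO), and higher in BKO in ligated limbs; such a total does not check the deletion of some exons. The 5 fibre genes Acta1, Ckm, Mylpf, Tnnt3 and Myh4, whose summed normalized count was at least 641950 in each library, were abundant in all 18. With ligation, all 6 tested adipocyte genes, 3 of 5 fibro-adipogenic progenitor genes and 4 (WT) or 5 (BKO) of 6 endothelial genes were higher. In each genotype 8 of 11 fast fibre genes were lower, though not the same 8. Of other cell types, 4 of 6 macrophage genes and 1 of 2 Schwann cell genes were higher in WT and 0 in BKO, and 3 of 7 smooth muscle genes were higher and 1 lower in each. Beside these marker counts, 18.7% of all tested genes were higher and 21.1% lower with ligation in WT, and 22.1% and 25.1% in BKO. In whole muscle, fewer cells of a type and less RNA per cell cannot be told apart, and the part of these shifts in the results for the 10 genes was not tested.

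The values are the authors' normalized counts, which are reads divided by a size factor for each library. Genes with a mean of at least 10 over the 18 libraries, 12262 in all, were tested with limma on log2(normalized count + 1), and those with a Benjamini-Hochberg adjusted p under 0.05 are said to have passed. All 10 genes met that minimum, Sln only through the ligated groups where it was high. For ligation in WT, 5 of the 10 genes passed, 2 higher and 3 lower, where 39.8% of all tested genes passed (18.7% higher, 21.1% lower), and the median log2 difference of the 10 was -0.20 beside -0.00251 over all genes. For ligation in BKO, 6 passed, 4 higher and 2 lower, beside 47.2% of all genes (22.1% higher, 25.1% lower), with medians of 0.09 and -0.00357. Between BKO and WT, 4 passed in intact muscle, 2 in each direction, beside 18.3% of all genes (8.56% higher, 9.75% lower). In ligated muscle 2 passed, both higher in BKO, beside 8.84% of all (4.16% higher, 4.68% lower). The median difference of the 10 genes was 0.19 in intact and 0.29 in ligated muscle, beside 0.00017 and -0.02 over all genes. The ligation effect itself differed between the genotypes (interaction) for 1 of the 10 and for 6.01% of all genes (3.04% higher in BKO, 2.97% lower). One of the higher genes with ligation in each genotype is Sln. Without it 4 of 9 passed in WT, 1 higher and 3 lower (median -0.24), and 5 of 9 in BKO, 3 higher and 2 lower (median 0.07). Without the 2 BKO ligated libraries with the most mt-Rnr2, a setting chosen after seeing the data, 6 of the 10 passed for ligation in WT, 5 for ligation in BKO, 5 between intact groups, 3 between ligated groups and 2 for the interaction. Of all 12209 genes tested in that setting, 4992, 4043, 2360, 617 and 269 passed in the same order.

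Libraries were also rescaled to an equal total over nuclear genes, in which the most abundant nuclear genes weigh most. The summed normalized count of the 11 fast fibre genes had means of 1.24e+06 (WT intact) and 818807 (WT ligated). In BKO these means were 1.23e+06 (intact) and 960384 (ligated), and their part in the rescaled values was not tested. This rescaling moved the median of all genes by ligation in WT to 0.27 and in BKO to 0.12. It turned the calls from 2295 higher and 2585 lower to 4456 higher and 1145 lower in WT, and from 2713 and 3077 to 3412 and 2260 in BKO. For BKO against WT, it turned them from 1050 higher and 1196 lower to 1404 and 857 in intact muscle, from 510 and 574 to 355 and 956 in ligated muscle, and from 373 and 364 to 233 and 1065 for the interaction. Scaling to an equal upper quartile gave 2816 higher and 2093 lower for ligation in WT. Members whose call ended under either scaling are named with their values.

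Levels were compared between genes per kilobase of each gene's longest coding transcript. On that scale the family spanned the range from Pvalb and Atp2a1, at means of 50721 and 44506 normalized counts per kb in WT intact muscle, to Pln at 6.82 and Sln at 1.82. Casq1 came next after the leading pair at 9777, then Ryr1 at 2680, Cacna1s at 1387, Mrln at 234, Casq2 at 100.3 and Atp2a2 at 54.2. Neighbours in this order had separate ranges over the libraries, except Pvalb and Atp2a1. The order of Mrln and Casq2 depended on the length used: by merged exons Mrln came after Casq2 in WT intact muscle.

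In WT ligated muscle Atp2a1 (47746 per kb) stood above Pvalb (36435 per kb) with no overlap, and Sln (46.3 per kb) had moved above Pln (4.50 per kb), its range overlapping that of Casq2 (75.8 per kb). In BKO intact muscle Mrln reached 847 per kb and Casq2 319 per kb, while Ryr1, at 1477 per kb, overlapped Cacna1s at 1641 per kb, and Pln at 6.42 per kb overlapped Sln at 4.01 per kb. BKO ligated muscle had the order of WT ligated muscle for the 5 most abundant genes, with Ryr1 at 3092 and Cacna1s at 1487 per kb, and Mrln came next at 911 per kb. By merged exons Mrln ranked 8 in WT ligated muscle, after Atp2a2 and Casq2, and 6 in both BKO groups.

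**Figure D1:**
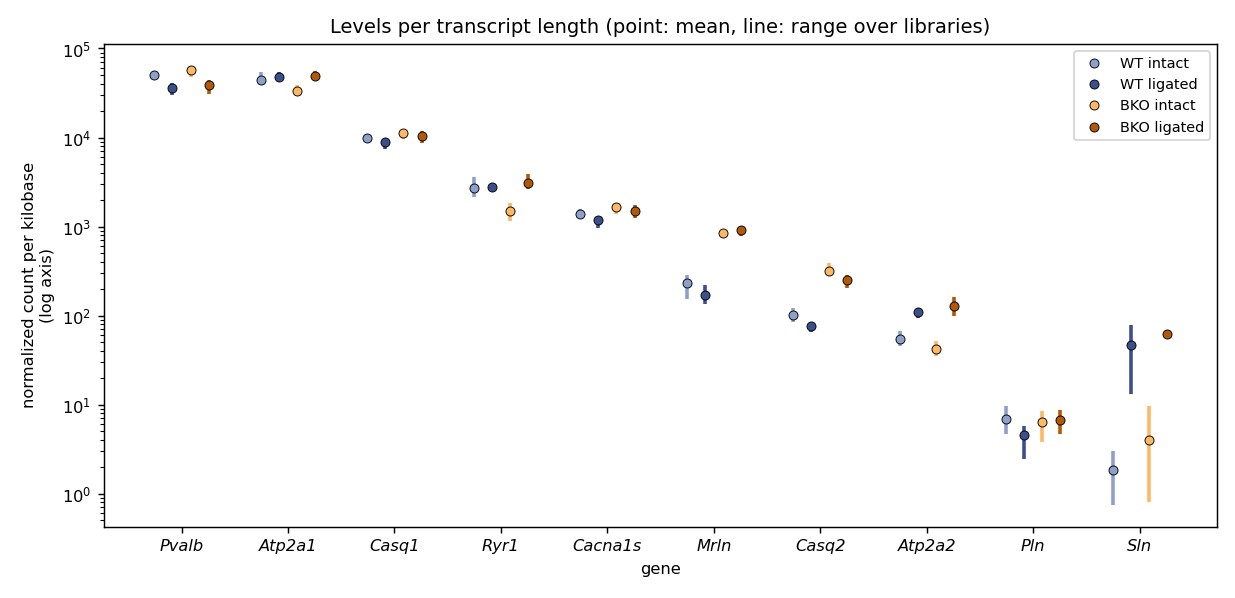
Mean level per kilobase of the longest coding transcript of the 10 genes in each of the 4 groups, on a log axis in normalized counts per kb, with a line for the range over libraries. The fast-fibre genes Pvalb and Atp2a1 lead in every group, and Sln moves from 1.82 in WT intact to 46.3 in WT ligated muscle.

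Atp2a1 (ENSMUSG00000030730, chromosome 7, 126445858 to 126463108, minus strand, mm10), the fast-fibre pump, had normalized counts of 142754, 191409, 155889, 146227 and 137459.8 in WT intact and 152529, 166805, 189818 and 154901 in WT ligated muscle. In BKO they were 124099.8, 107199, 135084, 101945 and 117021 in intact and 195556, 159399.8, 159775 and 166035 in ligated muscle. Every BKO intact library lay below every library of the other 3 groups, which overlapped one another. The mean was lower in BKO than in WT intact muscle by a log2 difference of -0.40 ± 0.11 (SE; limma, Benjamini-Hochberg adjusted p = 0.0109). Atp2a1 rose with ligation in BKO by 0.54 ± 0.11 (SE; limma adjusted p = 0.000507). In WT the difference with ligation was 0.11, with a 95% interval of -0.13 to 0.34 (limma adjusted p = 0.479), and the difference between these 2 responses, 0.44 ± 0.16 (SE), did not pass (limma adjusted p = 0.104). With all genes kept in the test regardless of level the intact difference missed the threshold (limma adjusted p = 0.0717). Scaled to equal nuclear totals, ligation in WT passed for Atp2a1 at a log2 difference of 0.38 (limma adjusted p = 0.00509).

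Atp2a2 (ENSMUSG00000029467, chromosome 5, 122453513 to 122502225, minus strand), the slow-fibre and cardiac pump, had normalized counts of 212, 303, 203, 259 and 239.8 in WT intact and 524, 475, 426 and 548 in WT ligated muscle. In BKO it had 158, 175, 196, 229 and 187 in intact and 638, 492, 440.2 and 729 in ligated muscle. All 8 ligated libraries lay above all 10 intact ones. Atp2a2 rose with ligation by 1.02 ± 0.15 (SE) on the log2 scale in WT and by 1.58 ± 0.15 (SE) in BKO (limma adjusted p = 1.16e-05 and 4.57e-08). The difference of the 2 responses was 0.56 ± 0.21 (SE; limma adjusted p = 0.109). Between genotypes the log2 difference was -0.36 in intact muscle (95% interval -0.64 to -0.07, limma adjusted p = 0.0762) and 0.20 in ligated muscle (95% interval -0.12 to 0.52, limma adjusted p = 0.487). Without BKO intact library 4 the intact difference passed, at -0.43 (limma adjusted p = 0.0437).

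Of 8 slow fibre genes, 0 were higher and 1 was lower with ligation in WT (median log2 difference -0.21), and 1 was higher and 1 lower in BKO (median 0.49), where Myl3, a slow myosin light chain, rose by 0.97. Their summed normalized count had means of 659 and 567 in WT intact and ligated muscle and of 633 and 939 in BKO. It ranged over 345 to 937 in WT intact, 380 to 763 in WT ligated, 446 to 1128 in BKO intact and 761 to 1352 in BKO ligated libraries. Smooth muscle, which also expresses Atp2a2, was represented by 7 tested marker genes, of which 3 were higher and 1 lower with ligation in each genotype. The summed level of all 8 genes of that list was 5471 to 7030 in WT intact, 7176 to 9568 in WT ligated, 4383 to 5427 in BKO intact and 6600 to 8249 in BKO ligated libraries, and the part of slow fibres and smooth muscle in the Atp2a2 result was not tested. The heart markers Nppa and Myl7 are not analysed here, and Myh6 had mean normalized counts of 22.8 (WT) and 51.2 (BKO) in intact limbs and of under 1 in ligated limbs of both genotypes. Per kilobase, Atp2a2 made up 0.122% ± 0.0150 (SD, n = 5) of the summed level of both pump transcripts in WT intact muscle and 0.233% ± 0.0463 (SD, n = 4) in WT ligated muscle, so Atp2a1 made up nearly the whole pump message in each.

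Sln (ENSMUSG00000042045, chromosome 9, 53850164 to 53854560, plus strand), which encodes the pump inhibitor sarcolipin, had normalized counts of 3.87, 1.18, 0.985, 1.93 and 4.01 in WT intact and 104.5, 21.7, 17.4 and 100.5 in WT ligated muscle. The BKO intact libraries had 3.56, 1.05, 4.92, 4.19 and 12.7, and the BKO ligated ones 84.0, 76.1, 73.5 and 90.5. The intact values rest on 11 reads over all 5 WT libraries and 30 over all 5 BKO libraries. In each genotype every ligated library exceeded every intact one, and the WT ligated libraries fell into a higher and a lower pair, whereas the BKO ligated libraries lay close together.

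On the log2(normalized count + 1) scale the difference with ligation was 3.87 ± 0.53 (SE) in WT and 3.96 ± 0.53 (SE) in BKO. Since Sln met the minimum level only through its ligated groups, the test is given with all 20922 genes kept regardless of level, and Sln passed it in both genotypes (limma adjusted p = 1.07e-05 and 6.75e-06). The ratio of ligated to intact means was 25.5 in WT and 15.3 in BKO. Between the genotypes the difference was 0.73 (95% interval -0.32 to 1.78) in intact and 0.83 (95% interval -0.34 to 2.003) in ligated muscle, and neither passed (limma adjusted p = 0.358 and 0.414).

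Mrln (ENSMUSG00000019933, chromosome 10, 70204664 to 70219711, plus strand), the first of the promoters printed, encodes the inhibitory peptide of adult fast and slow fibres. Its normalized counts were 68.4, 98.3, 125, 125 and 100.4 in WT intact and 59.1, 63.7, 78.4 and 98.0 in WT ligated muscle. They were 374, 406, 403, 351 and 343 in BKO intact and 349, 437, 379 and 449.7 in BKO ligated muscle. Every BKO library exceeded every WT library by a wide margin, in both limbs. The log2 difference between BKO and WT was 1.88 ± 0.15 (SE) in intact and 2.44 ± 0.17 (SE) in ligated muscle (limma adjusted p = 3.36e-08 and 4.39e-09), and the means were 3.63 and 5.39 times as high.

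With ligation Mrln fell in WT by 0.46 ± 0.16 (SE) on the log2 scale (limma adjusted p = 0.0286), and the WT groups overlapped. In BKO the difference was 0.10, with a 95% interval of -0.24 to 0.44 (limma adjusted p = 0.634). The fall in WT missed the threshold without WT intact library 4 or 5 or without WT ligated library 2 or 4, at log2 differences of -0.38, -0.38, -0.36 and -0.39 (limma adjusted p = 0.0773, 0.0783, 0.111 and 0.0896). It also did so when only the WT groups entered the fit (limma adjusted p = 0.0816), and under equal nuclear totals at -0.19 or an equal upper quartile at -0.38 (limma adjusted p = 0.349 and 0.0646). The difference of the ligation responses, 0.56 ± 0.23 (SE), did not pass (limma adjusted p = 0.151), but did at 0.70 without WT intact library 2 (limma adjusted p = 0.0390).

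Pln (ENSMUSG00000038583, chromosome 10, 53337667 to 53345987, plus strand), the phospholamban gene of heart and slow muscle, stayed low throughout. Its normalized counts were 16.8, 22.5, 10.8, 15.4 and 14.05 in WT intact, 10.5, 13.6, 12.2 and 5.76 in WT ligated, 8.89, 20.0, 14.8, 13.4 and 17.8 in BKO intact and 10.99, 12.3, 19.4 and 20.4 in BKO ligated muscle. The groups overlapped, and none of the 5 comparisons passed. The lowest adjusted p was that of ligation in WT, with a log2 difference of -0.58 (95% interval -1.21 to 0.06, limma adjusted p = 0.142). These values rest on 44 to 81 reads per group. Exons of Pln overlap 141 exonic bases of Cep85l on the other strand, a gene with a mean normalized count of 595, and a strand setting for the counting was not given in the sources used here.

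Among the 3 inhibitor transcripts per kilobase, Mrln made up 96.2% of the sum in WT intact muscle, 78.1% in WT ligated, 98.8% in BKO intact and 93.0% in BKO ligated muscle. Sln made up 0.845%, 19.6%, 0.485% and 6.32% in the same order. The Sln share varied among the WT ligated libraries, from 6.76 to 36.5%. These shares depend on the length used for Mrln, 443 bases for the transcript and 1180 for its merged exons. By merged exons Sln made up 36.1% in WT ligated muscle, from 15.7 to 59.5% over its libraries, and Mrln 59.9%.

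**Figure D2:**
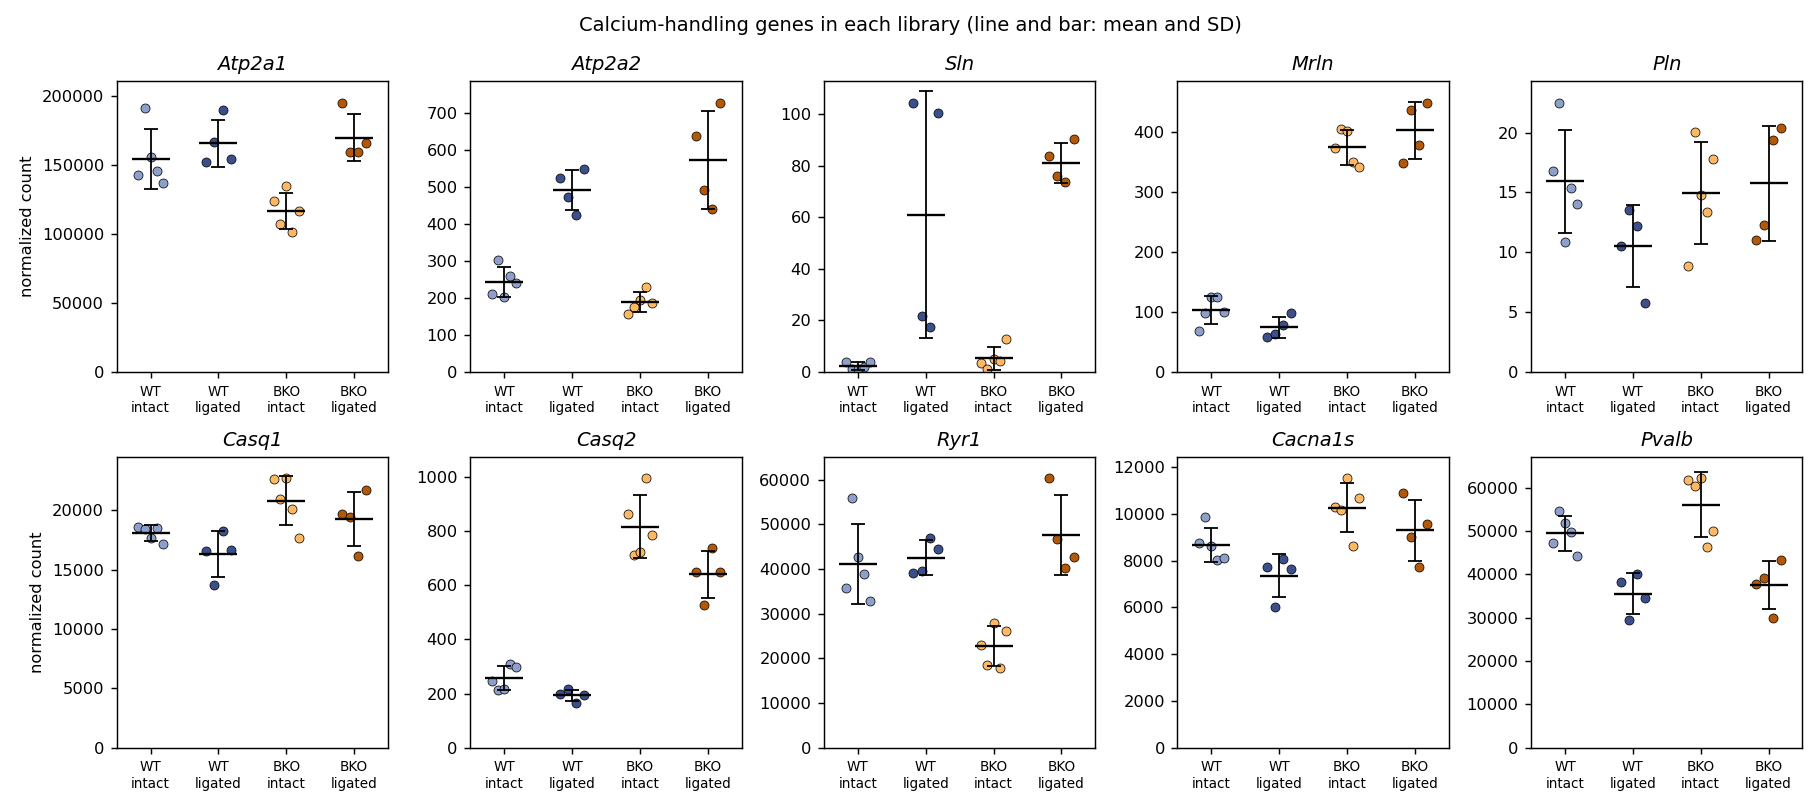
Normalized count of each of the 10 genes in all 18 libraries, on linear axes from 0, 1 point per library, with the group mean and SD as lines. Mrln and Casq2 separate the genotypes, Sln and Atp2a2 separate ligated from intact limbs, and Ryr1 and Atp2a1 are lowest in BKO intact muscle.

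Casq1 (ENSMUSG00000007122, chromosome 1, 172209894 to 172219868, minus strand), the fast-fibre calsequestrin, varied little. It had normalized counts of 18602, 18401, 17625, 18539.9 and 17125 in WT intact, 16571, 13676, 18279 and 16665 in WT ligated, 22593, 20926, 22684, 20072 and 17669 in BKO intact and 19635, 19458, 16146 and 21661 in BKO ligated muscle. The ranges of the groups overlapped and no comparison passed. The log2 differences between BKO and WT were 0.20 (95% interval 0.01 to 0.38) in intact and 0.24 (95% interval 0.03 to 0.44) in ligated muscle (limma adjusted p = 0.133 and 0.149). The intact difference passed without BKO intact library 5, at 0.26 (limma adjusted p = 0.0499), and with equal nuclear totals, at 0.27.

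Casq2 (ENSMUSG00000027861, chromosome 3, 102086415 to 102146514, plus strand), the calsequestrin of heart and slow fibres, had normalized counts of 245, 214, 217, 307 and 298 in WT intact and 199, 216, 166 and 194 in WT ligated muscle. In BKO they were 864, 712, 723, 995 and 784 in intact and 649, 526, 737 and 648 in ligated muscle. The lowest BKO library exceeded the highest WT library in both limbs. Casq2 was higher in BKO by 1.67 ± 0.12 (SE) on the log2 scale in intact and by 1.72 ± 0.14 (SE) in ligated muscle (limma adjusted p = 6.24e-09 and 2.43e-08), with means 3.18 and 3.31 times as high. Of the 8 slow fibre genes 0 passed in either genotype comparison, with a median log2 difference of 0.25 in intact and 0.86 in ligated muscle.

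Casq2 fell with ligation by 0.39 ± 0.13 (SE) on the log2 scale in WT and by 0.35 ± 0.13 (SE) in BKO (limma adjusted p = 0.0197 and 0.0315), each with overlapping groups. In WT this missed the threshold without WT intact library 5 or 6 or WT ligated library 5, at -0.32, -0.33 and -0.32 (limma adjusted p = 0.0588, 0.0547 and 0.0752). In BKO it did so without BKO intact library 1 or 4 or BKO ligated library 4, at -0.32, -0.27 and -0.26 (limma adjusted p = 0.0648, 0.0933 and 0.132). Equal nuclear totals gave -0.12 in WT and -0.23 in BKO (limma adjusted p = 0.507 and 0.189), and an equal upper quartile -0.31 and -0.29 (limma adjusted p = 0.0589 and 0.0699). Per kilobase, Casq2 made up 1.02% of calsequestrin message in WT intact, 0.868% in WT ligated, 2.78% in BKO intact and 2.39% in BKO ligated muscle.

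Pvalb (ENSMUSG00000005716, chromosome 15, 78191114 to 78206400, minus strand), the cytosolic buffer of fast fibres, had normalized counts of 47275, 54605, 51874, 49841 and 44174 in WT intact and 38319, 29423, 40146 and 34498 in WT ligated muscle. In BKO they were 61706, 60545, 62213, 46331 and 49972 in intact and 37826, 39139.8, 29986 and 43447 in ligated muscle. All ligated libraries lay below all intact ones. Pvalb fell by 0.48 ± 0.12 (SE) on the log2 scale in WT and by 0.58 ± 0.12 (SE) in BKO (limma adjusted p = 0.0025 and 0.000399). The difference between the responses was -0.10, with a 95% interval of -0.44 to 0.25. Under equal nuclear totals the WT value was -0.21 and missed the threshold (limma adjusted p = 0.137), and the BKO value was -0.46 (limma adjusted p = 0.00233). Between the genotypes the difference was 0.17 in intact (95% interval -0.06 to 0.40) and 0.08 in ligated muscle (95% interval -0.18 to 0.33), and neither passed.

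Ryr1 (ENSMUSG00000030592, chromosome 7, 29003344 to 29125179, minus strand), the release channel, had normalized counts of 35636, 55811, 42684, 38756 and 32899.5 in WT intact and 39085, 39620.5, 46963 and 44508 in WT ligated muscle. In BKO it had 22879, 18595, 27924, 17849 and 26147 in intact and 60275, 46739, 40166 and 42775 in ligated muscle. As for Atp2a1, every BKO intact library lay below all libraries of the other groups, which overlapped. Ryr1 was lower in BKO than in WT intact muscle by a log2 difference of -0.86 ± 0.14 (SE; limma adjusted p = 0.000237). It rose with ligation in BKO by 1.07 ± 0.15 (SE; limma adjusted p = 1.04e-05), a ratio of means of 2.09.

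In WT the Ryr1 difference with ligation was 0.07, with a 95% interval of -0.25 to 0.39 (limma adjusted p = 0.751). The ligation effect in BKO exceeded that in WT by 1.00 ± 0.22 (SE), with a 95% interval of 0.55 to 1.45 (limma adjusted p = 0.0110). In ligated muscle the genotypes differed by 0.15 (95% interval -0.19 to 0.48, limma adjusted p = 0.654). Ryr1 has a transcript of 15.4 kb, and long transcripts moved in the same directions: over the 319 tested genes with transcripts of at least 10 kb the median log2 difference was -0.11 for BKO against WT in intact muscle, 0.28 for ligation in BKO and 0.23 for the interaction. The medians of the 11869 shorter genes were 0.00354, -0.01 and -0.02. Of the 319, 14 had an intact genotype difference at or below that of Ryr1. The part of transcript length in the Ryr1 result was not tested.

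Cacna1s (ENSMUSG00000026407, chromosome 1, 136052750 to 136119822, plus strand), the voltage sensor of the transverse tubule, had normalized counts of 8730.5, 9862, 8610.0, 8044 and 8114 in WT intact and 7713, 6006, 8052 and 7652 in WT ligated muscle. The BKO libraries had 10298, 10178, 11517, 8622 and 10687 in intact and 10875, 9022, 7712 and 9583 in ligated muscle. The groups overlapped in every comparison and none passed, unlike for Ryr1. The log2 difference between BKO and WT was 0.24 (95% interval 0.04 to 0.44) in intact and 0.34 (95% interval 0.11 to 0.56) in ligated muscle (limma adjusted p = 0.0980 and 0.0613). The intact difference passed at 0.30 without BKO intact library 4 (limma adjusted p = 0.0430) and at 0.31 with equal nuclear totals. The ligated difference passed at 0.34 without BKO intact library 4 and at 0.42 without BKO ligated library 5 (limma adjusted p = 0.0483 and 0.0217). It also passed with DESeq2 on the recovered reads, at 0.34 (DESeq2 adjusted p = 0.0271). With ligation the differences were -0.24 in WT and -0.15 in BKO, and the WT one passed without BKO ligated library 5 (limma adjusted p = 0.0497).

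**Figure D3:**
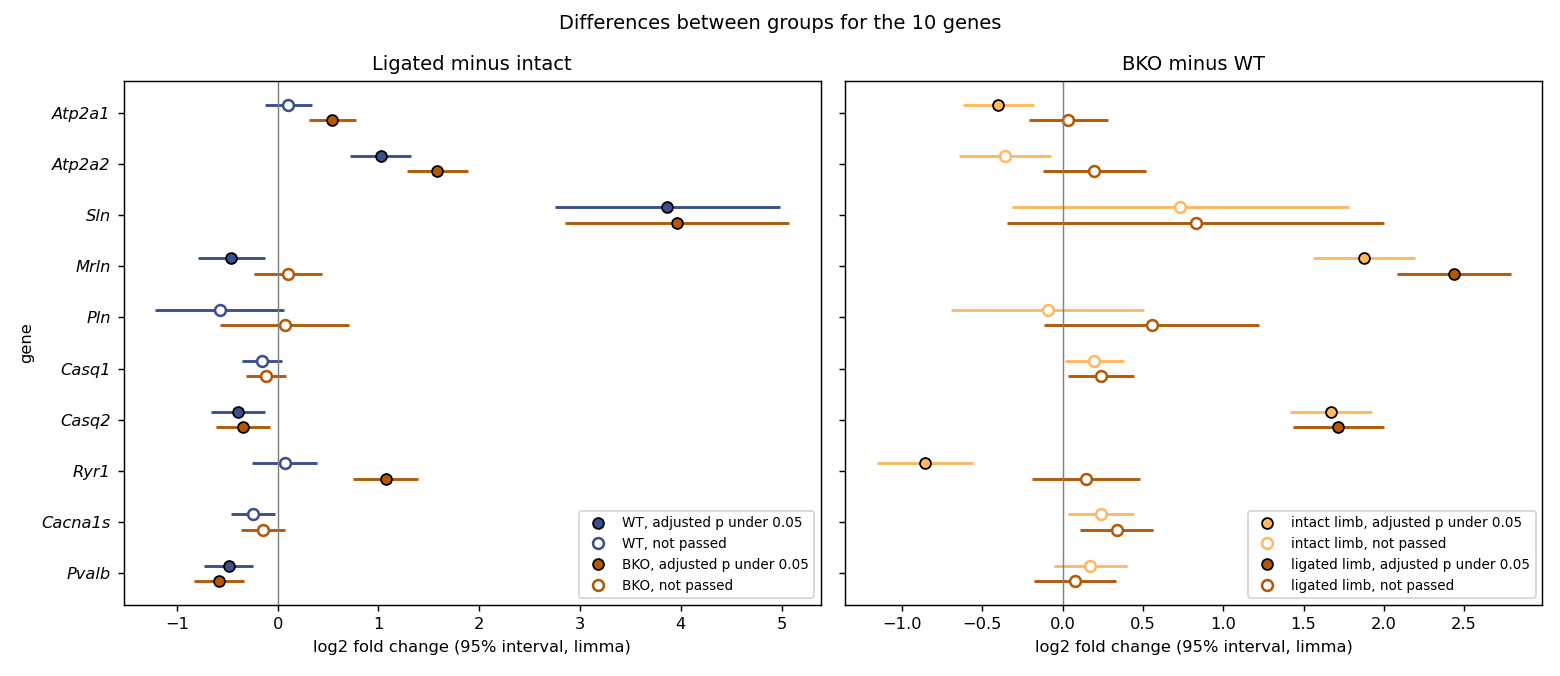
Log2 differences of the 10 genes in the 4 two-group comparisons, with ligated minus intact on one side and BKO minus WT on the other; lines are 95% intervals from the limma fit and filled points passed the adjusted threshold of 0.05. Of the 10 genes only Mrln and Casq2 passed between the genotypes in both limbs, and Atp2a2 and Sln lie right of 0 with ligation in both genotypes.

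Ratios within a library do not depend on its size factor, apart from the added count of 1. For 6 ratios in the 4 two-group comparisons an exact two-sided permutation test over libraries was run, with Benjamini-Hochberg adjustment over the 24 tests, and 11 passed. The smallest p that the design allows is 0.00794 for 5 against 5 libraries, 0.0159 for 5 against 4 and 0.0286 for 4 against 4, so each of the 11 had groups that did not overlap and an adjusted p of 0.0346.

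Relative to Atp2a1, Atp2a2 was higher in ligated than in intact muscle by 0.92 on the log2 scale in WT and by 1.04 in BKO, while the genotypes differed by 0.04 in intact and 0.16 in ligated muscle (adjusted exact p = 0.810 and 0.537). Casq2 relative to Casq1 was higher in BKO intact than in WT intact muscle by 1.47. In ligated muscle the difference was 1.48, also without overlap, but at the smallest p that 4 against 4 allows (exact p = 0.0286, adjusted exact p = 0.0527).

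Among the inhibitors, Mrln relative to Atp2a1 was higher in BKO by 2.28 in intact muscle, and by 2.40 in ligated muscle with no overlap at the same smallest p. With ligation in BKO that ratio was lower by a log2 difference of -0.44, Atp2a1 having risen. Sln relative to Atp2a1 was higher with ligation by 3.76 in WT and 3.42 in BKO. Pln relative to Atp2a2 was lower with ligation by log2 differences of -1.60 in WT and -1.51 in BKO. Atp2a2 rose in both genotypes, while the differences of Pln itself were -0.58 in WT and 0.07 in BKO, and neither passed.

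The ratio of Ryr1 to Cacna1s showed the coupling genes apart from each other. Its log2 values were 2.03, 2.5, 2.31, 2.27 and 2.02 in WT intact, 2.34, 2.72, 2.54 and 2.54 in WT ligated, 1.15, 0.87, 1.28, 1.05 and 1.29 in BKO intact and 2.47, 2.37, 2.38 and 2.16 in BKO ligated muscle. The BKO intact libraries stood alone below all others. The ratio was lower in BKO intact than in WT intact muscle by a log2 difference of -1.10, and higher with ligation in BKO by 1.22. For ligation in WT the difference was 0.31 (adjusted exact p = 0.0544), and between ligated groups it was -0.19 (adjusted exact p = 0.161). When any BKO library except BKO intact library 2 was left out, 0 of the 24 ratio tests passed. Leaving out a library raises the smallest p that the design allows, so this count does not measure how far the ratios moved. Without a BKO intact library that p is 0.0286 for ligation in BKO. Over all libraries left out singly, the Ryr1 to Cacna1s differences were -1.15 to -1.03 between intact groups and 1.15 to 1.28 for ligation in BKO.

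**Figure D4:**
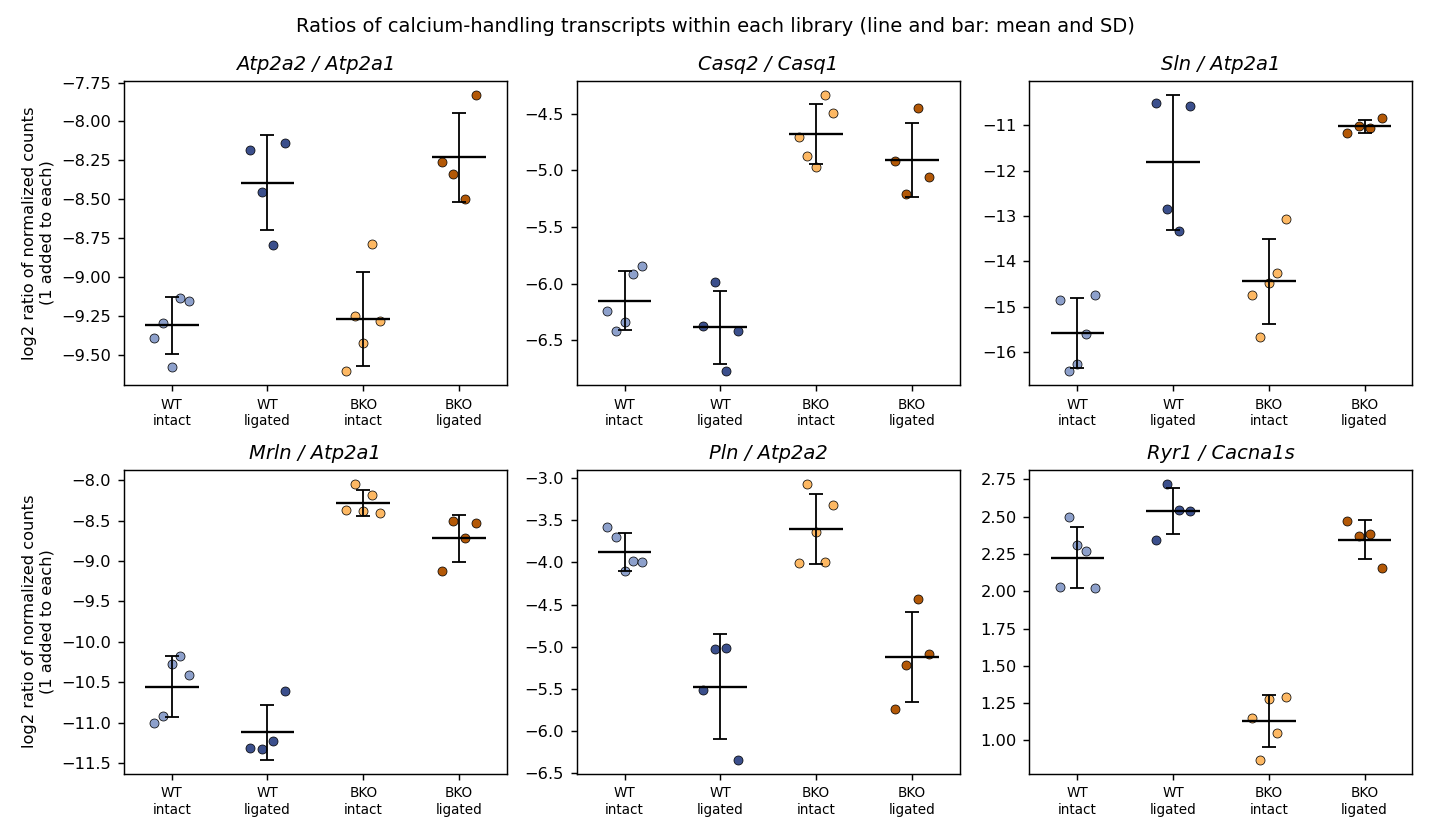
Log2 ratios of normalized counts (1 added to each) within each library for 6 pairs of the genes, 1 point per library, with group mean and SD. Ryr1 to Cacna1s is low in BKO intact muscle alone, Casq2 to Casq1 is higher in both BKO groups, and Atp2a2 to Atp2a1 is higher in both ligated groups.

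Other genes of calcium handling were counted in 6 lists of 53 genes, of which 49 were tested. With ligation in WT, 4 were higher and 27 lower (median log2 difference -0.26), beside 18.7% of all tested genes higher and 21.1% lower. In BKO 8 were higher and 25 lower (median -0.22), beside 22.1% and 25.1%. Scaled to equal nuclear totals these counts were 8 higher and 13 lower in WT (median 0.0162) and 10 higher and 16 lower in BKO (median -0.0987). That scaling moved all genes upward: of 12288 tested, 4456 were higher and 1145 lower in WT (median 0.27). In BKO 3412 of them were higher and 2260 lower (median 0.12). With an equal upper quartile the counts of the lists were 4 higher and 21 lower in WT, beside 2816 and 2093 of all 12268 genes. In BKO they were 9 and 23, beside 3021 and 2720 of all 12268 genes. Between BKO and WT, 11 were higher and 12 lower in intact muscle (median 0.04), beside 8.56% and 9.75% of all genes. In ligated muscle 8 were higher and 3 lower (median 0.11), beside 4.16% and 4.68%. With equal nuclear totals 5 were higher and 5 lower, beside 355 and 956 of all 12288 genes. The interaction gave 6 higher and 0 lower, beside 3.04% and 2.97%. At equal nuclear totals it gave 5 and 3, beside 233 and 1065 of all 12288 genes.

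The triad and release partners, proteins that hold the tubule to the reticulum or act on the release channel, had 1 gene higher and 10 lower of 16 with ligation in WT (1 and 3 with equal nuclear totals), and 3 higher and 7 lower in BKO (4 and 5). Trdn, which encodes triadin and anchors calsequestrin to the release channel, fell by 0.92 ± 0.07 (SE) on the log2 scale in WT and by 0.75 ± 0.07 (SE) in BKO (limma adjusted p = 5.32e-09 and 7.20e-08). Cav3, the muscle caveolin, rose by 0.61 ± 0.14 (SE) with ligation in WT and was higher in BKO than in WT intact muscle by 0.66 ± 0.13 (SE; limma adjusted p = 0.00136 and 0.00103). Jph2, a junctophilin that bridges tubule and reticulum, was lower in BKO intact muscle by a log2 difference of -0.69 ± 0.11 (SE; limma adjusted p = 8.51e-05). Asph was higher in BKO ligated muscle by 0.41 ± 0.08 (SE; limma adjusted p = 0.00137). In intact muscle it was also higher in BKO, by 0.39 with equal nuclear totals and 0.34 with an equal upper quartile (limma adjusted p = 0.000848 and 0.00116).

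Fkbp1a encodes the small immunophilin that binds the ryanodine receptor. Its mean normalized count was 376 ± 62.3 (WT) and 218 ± 31.6 (BKO) in intact limbs (SD, n = 5 each) and 382 ± 54.6 (WT) and 424 ± 54.1 (BKO) in ligated limbs (SD, n = 4 each). It rose with ligation in BKO by 0.96 ± 0.13 (SE; limma adjusted p = 6.35e-06), and its ligation effect was larger in BKO than in WT by 0.94 ± 0.19 (SE; limma adjusted p = 0.00711). The other genes that passed for the interaction were Tmem38b (1.16), Slc8a1 (0.83), Camk2a (0.74), Camk2b (0.62) and Jph2 (0.54), each a log2 difference of the ligation effects. These 6 are named because they are the whole set that passed, a choice made with their values seen. Jph2 missed the threshold with equal nuclear totals, at 0.39, and Tmem38b without the 2 BKO ligated libraries with the most mt-Rnr2, at 1.09 (limma adjusted p = 0.0920 and 0.0536). Tmem38b encodes a counter-ion channel of the reticulum; its intact genotype difference was -0.78 and its ligation effect 0.67 in BKO and -0.48 in WT (limma adjusted p = 0.00173, 0.00316 and 0.0304). The WT value missed the threshold at -0.21 with equal nuclear totals and at -0.41 with an equal upper quartile (limma adjusted p = 0.289 and 0.0638).

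The list of surface extrusion and store-operated entry had 1 gene higher and 4 lower of 8 with ligation in WT, and 2 higher and 6 lower in BKO (1 and 3, and 2 and 3, with equal nuclear totals). The calcium exporter gene Atp2b4 rose with ligation by 0.95 ± 0.13 (SE) in WT and by 1.298 ± 0.13 (SE) in BKO (limma adjusted p = 1.16e-05 and 2.22e-07). Slc8a1, the sodium-calcium exchanger best known from heart, fell by 1.61 ± 0.11 (SE) in WT with ligation and was higher in BKO by 0.68 ± 0.10 (SE) in intact and 1.52 ± 0.12 (SE) in ligated muscle (limma adjusted p = 1.32e-09, 8.82e-05 and 1.73e-08). With ligation in BKO Slc8a1 fell too, at -0.65 with equal nuclear totals and -0.72 with an equal upper quartile (limma adjusted p = 0.000127 and 2.43e-05). Its relative Slc8a3 was lower in BKO by log2 differences of -0.66 in intact and -0.80 in ligated muscle (limma adjusted p = 6.07e-05 and 3.83e-05).

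In the list of calcium-dependent signalling, 0 genes were higher and 9 lower of 12 with ligation in WT, and 1 was higher and 7 lower in BKO (1 and 7, and 2 and 6, with equal nuclear totals). The calmodulin gene Calm3 fell by 1.14 ± 0.08 (SE) in WT with ligation, and its log2 difference was -0.997 in BKO (limma adjusted p = 9.95e-10 and 5.84e-09). The calcineurin regulator Rcan2 fell by 1.77 ± 0.18 (SE) with ligation in BKO (limma adjusted p = 2.32e-07) and was lower in BKO than in WT ligated muscle by a log2 difference of -0.86. It fell with ligation in WT too, at -0.91 with equal nuclear totals and -1.11 with an equal upper quartile (limma adjusted p = 0.000799 and 7.53e-05). Camk2d, a calmodulin-dependent kinase, was higher in BKO by 0.65 in intact and 1.02 in ligated muscle (limma adjusted p = 0.000551 and 2.41e-05), and Calm2 was lower by log2 differences of -0.65 and -0.36. Without the 2 BKO ligated libraries with the most mt-Rnr2 the ligated differences of Rcan2 and Calm2 missed the threshold, at -0.80 and -0.29 (limma adjusted p = 0.0686 and 0.208).

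Of the lists nearest to the pump, Atp2a3, a pump of non-muscle cells, rose with ligation by 0.81 ± 0.16 (SE) in WT and by 0.68 ± 0.16 (SE) in BKO (limma adjusted p = 0.000393 and 0.00159). Of 6 endothelial genes 4 were higher with ligation in WT and 5 in BKO, and of 6 macrophage genes 4 and 0. The part of non-fibre cells in the Atp2a3 result was not tested. The pump regulators Strit1 and Smim6 are not analysed here. Lumenal and counter-ion proteins had 0 higher and 3 lower of 5 with ligation in WT, and 1 higher and 3 lower in BKO (1 and 0, and 1 and 1, with equal nuclear totals). Mitochondrial uptake genes had 1 higher and 1 lower of 6 in WT and 0 higher and 1 lower in BKO (3 and 0, and 0 and 0, with equal nuclear totals), and 2 of 6 were higher in BKO intact muscle.

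**Figure D5:**
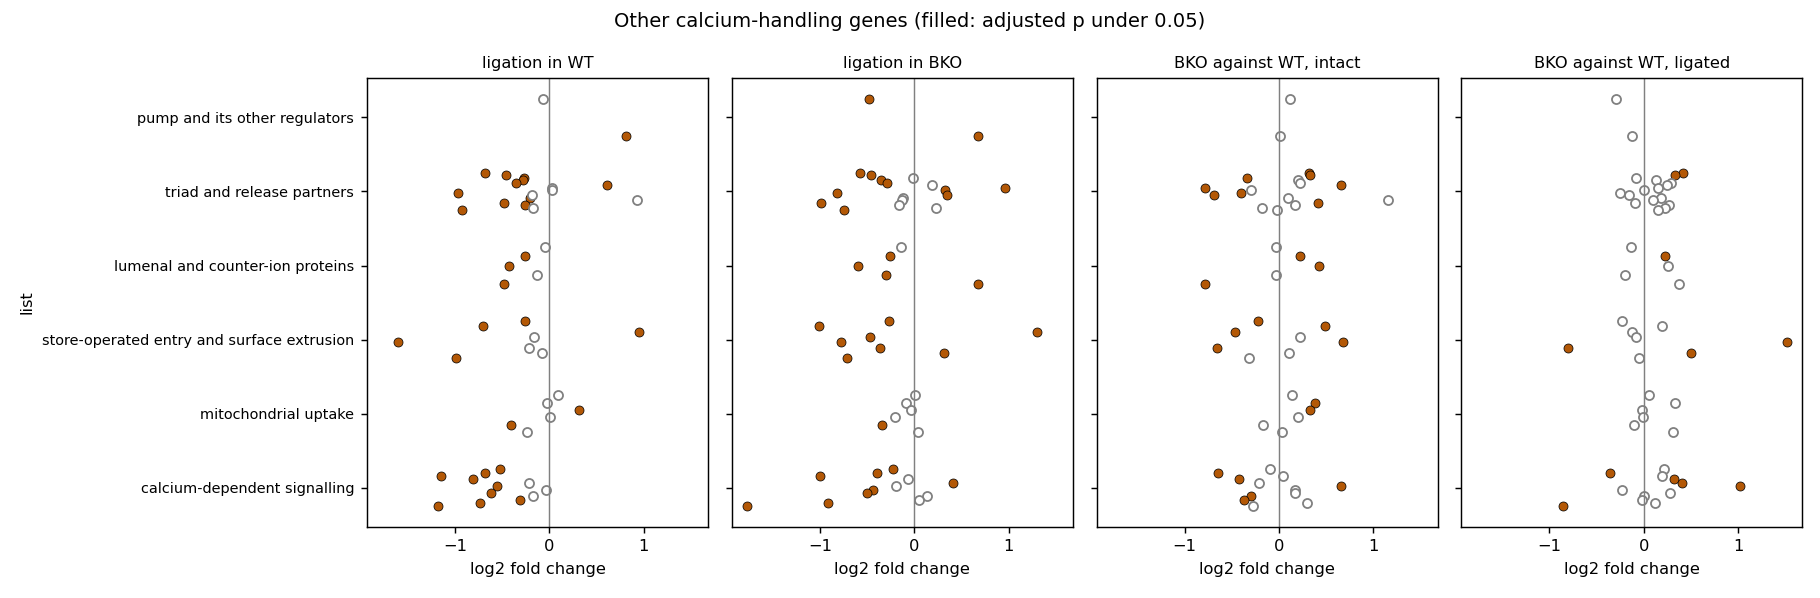
Log2 differences of the genes of 6 further calcium-handling lists in the 4 two-group comparisons, 1 point per gene, where filled points passed limma's adjusted threshold of 0.05. Over all lists, 27 of 49 genes passed as lower with ligation in WT and 25 of 49 in BKO, beside 21.1% and 25.1% of all tested genes. With equal nuclear totals these counts were 13 and 16, beside 1145 and 2260 of all 12288 genes tested at that scale.

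Genes most like the 3 members with the largest group differences were found by Pearson's correlation of log2 values over the 18 libraries, which share their groups and size factors. It is a description over 4 groups of samples and carries no test. For Mrln they were Nfil3, a repressor tied to the clock (r = 0.970), Chrnb1, a subunit of the acetylcholine receptor (r = 0.964), and the phosphatase gene Dupd1 (r = 0.959). For Casq2 they were Agt, the angiotensinogen gene (r = 0.966), Dupd1 (r = 0.965) and Clock, the partner of Bmal1 (r = 0.963), and Mrln and Casq2 themselves had r = 0.935. Dupd1 had mean normalized counts of 154 in WT intact, 152 in WT ligated, 882 in BKO intact and 701 in BKO ligated muscle. For Sln the nearest were Myh8, the perinatal myosin heavy chain (r = 0.978), Arap3 (r = 0.955) and Cilp (r = 0.947), and Myh8 had means of 41.6, 249, 61.8 and 307 in that order.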

How the data were processed

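Libraries of mouse tibialis anterior total RNA were strand-specific (TruSeq), per the labels' protocols. The tools Trimmomatic 0.33, STAR 2.5.2, RSEM 1.3.3 and DESeq2 and the genome mm10 come from the submitters' processing notes, which state no order; annotation and strand setting were not given in the sources used here. Deposited values are the authors' normalized counts, a signal that equals whole numbers over a size factor for each library (100% whole within 0.001). For 2 libraries (WT intact 6, BKO ligated 2) the factor was near 1, which makes that check weaker.

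The 10 genes, the gene lists and the rules were chosen with earlier results of these data known. All 18 libraries entered 1 limma 3.58.1 fit (R 4.3.3, eBayes with an intensity trend) of log2(normalized count + 1) with the 4 group means as terms. Errors of log2 differences are limma's standard errors, and intervals are 95% intervals. Further genes were named as the 3 with the smallest p in each direction per two-group comparison among those that passed, and as the 3 most correlated with Mrln, Casq2 and Sln. Gene positions and transcript lengths are from GENCODE M21 (GRCm38), and promoters from RefSeq. The fit was tested on simulated data. Alternatives were other pseudocounts and filters, edgeR 4.0.16 and DESeq2 1.42.0 on the recovered reads, other scalings, a fit of only the groups compared, a replicate block and each library left out. Depth bounds how precisely low genes are known, and counting errors are understated where reads are copies of 1 molecule.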

Additional observations from a re-analysis of the deposited data

Results flagged for a closer look

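The ligation effect on Ryr1 differed between the genotypes by a test of the difference itself: the effect in BKO minus that in WT was 1.00 on the log2 scale (limma, Benjamini-Hochberg adjusted p = 0.0110). Leaving out any 1 library gave 0.88 to 1.083 (limma adjusted p 0.00703 to 0.0296), and leaving out the 2 BKO ligated libraries with the most mt-Rnr2 gave 1.12 (limma adjusted p = 0.0250). Among the 319 tested genes with transcripts of at least 10 kb, 310 had a difference at or below that of Ryr1. For the values of the 10 genes in the 4 groups, 0 of 40 sets had a library standing apart from the others of its group by Dixon's test, where chance gives about 1 in 20.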

How the results depend on the processing

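Over settings other than leaving out 1 library, 496 of 528 values of the 10 genes kept their direction and side of the threshold, 10 lost it, 10 gained it and 12 that had not passed changed sign. Over libraries left out singly, 860 of 900 kept both. Of ligation in WT, 3 of the 10 passed under equal nuclear totals (3 higher, 0 lower), beside 5601 of all 12288 genes. Under an equal upper quartile 3 passed (2 higher, 1 lower), beside 4909 of all 12268. In the main fit 5 had passed (2 higher, 3 lower), beside 4880 of all 12262. For the interaction 2 passed with DESeq2 (Atp2a1 also, at 0.44) and 2 without the 2 BKO ligated libraries with the most mt-Rnr2 (Atp2a2 also, at 0.83), in place of 1. With 1 library left out, the counts were 3 to 6 for ligation in WT (3 without WT intact library 5) and 5 to 6 in BKO. Between genotypes they were 4 to 6 in intact and 2 to 3 in ligated muscle. For the interaction they were 1 to 2 (2 without WT intact library 2). Of the 24 ratio tests 0 to 14 passed, a count that depends on the smallest p that the remaining libraries allow. Values that had not passed and changed sign were Sln for the interaction (-0.77 in edgeR, -0.78 in DESeq2, -0.0192 with equal nuclear totals) and, with equal nuclear totals, Casq1 and Cacna1s for ligation in WT (0.12 and 0.0324), Casq1 for ligation in BKO (0.00707), Atp2a1 and Pvalb between ligated groups (-0.0450 and -0.00501) and Casq1, Casq2 and Cacna1s for the interaction (-0.11, -0.11 and -0.0572). Pvalb for the interaction was 0.0240 without the 2 libraries. With 1 library left out, such values ranged from -0.34 to 0.50 for Sln, -0.0271 to 0.13 for Casq2, -0.0414 to 0.12 for Casq1 and -0.19 to 0.00710 for Pvalb in the interaction. They ranged from -0.21 to 0.0691 for Pln between intact groups, -0.0920 to 0.22 for Pln with ligation in BKO, -0.00589 to 0.18 for Ryr1 with ligation in WT, -0.0324 to 0.10 for Atp2a1 and -0.0121 to 0.18 for Pvalb between ligated groups, and -0.0797 to 0.12 for the ratio of Atp2a2 to Atp2a1 between intact groups. The cause was not tested. Over all genes, the 737 calls of the interaction became 1158 with DESeq2, 1298 with equal nuclear totals, 269 without the 2 libraries, 402 without WT ligated library 2 and 461 without WT ligated library 5, and the 1084 between ligated groups became 617 without the 2 libraries.

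The labels do not say that samples of 1 number share a mouse, and same-numbered samples did not deviate together (correlations -0.0638 to 0.0478). A replicate block (duplicateCorrelation, consensus correlation 0.0378) left 5, 6, 4, 2 and 1 of the 10 passing in the 5 comparisons, and only WT number 5 correlated best with its own number.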
